A study of Mus musculus with 12 samples.

Results

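The liver X receptors and the genes that move cholesterol out of a macrophage were examined in bone marrow-derived macrophages, cells grown from mouse marrow with the growth factor M-CSF. The 10 genes were taken by name: the receptors *Nr1h2* and *Nr1h3*, their partner *Rxra*, the efflux transporters *Abca1* and *Abcg1*, *Apoe*, *Pltp* and *Scarb1*, which carry, remodel or take up lipoprotein lipid, and the receptor targets *Mylip* and *Lpcat3*. All 10 were present among the 13232 genes of the deposited table. Both groups were wild-type macrophages from C57B6/J mice kept for 1 h at 1% oxygen on day 7. One group came from mice on a normal diet (ND, 3 libraries) and the other from mice on a high-fat diet (HFD, 3 libraries). All 6 cultures were started in medium with 10% serum and 20 ng/ml of M-CSF and were moved on day 4 to a serum-free medium with the same M-CSF, so the diet was that of the donor mouse and not of the culture. The length of the diet and the age of the mice are not given in the sources used here. The labels describe 12 libraries, and the 6 at normal oxygen were not analysed here, so nothing below is a response to hypoxia.

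LXRα (encoded by *Nr1h3*) and LXRβ (encoded by *Nr1h2*) are nuclear receptors that bind oxysterols and desmosterol, and they sit on DNA as a heterodimer with RXR. When a macrophage takes in more cholesterol than it needs, activated LXR raises *Abca1* and *Abcg1*, which pass cholesterol to apolipoprotein A-I and to HDL, and *Apoe*, *Pltp*, *Mylip* and *Lpcat3*. The receptors also drive fatty acid synthesis through *Srebf1*, whereas the transcription factor SREBP2 works in the opposite sense and raises cholesterol synthesis when sterol is short.

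LXR and RXR bind a direct repeat of the half-site AGGTCA with a spacer of 4 bases, the element called DR4. It was searched in RefSeq promoter windows of build GRCm38.p6 (300 bases, of which 250 lie before and 50 after the start site), on both strands, as 2 copies of GGTNA in the same orientation with 5 bases of any kind between them, which is DR4 with its less fixed positions left free. Windows were found for 8 of the 10 genes, the exceptions being *Abcg1* and *Scarb1*. Of those 8 genes only *Abca1* held a match. In a list of 17 other LXR targets, 10 had a window, and *Srebf1*, *Fasn* and *Acsl3* held a match. Of all 32851 windows 236 (0.718%) held one, as did 49 of the 9021 genes of the deposited table that had a window (0.543%). The 4 matches are shown because they are the receptor's textbook element in genes measured here. Each stretch is written 5′ to 3′ on the gene's own strand with the match in capitals, and in every case the match reads as the repeat on the opposite strand. A match is a run of letters and no measurement of binding.
*Abca1*, chr4:53159927-53159982, minus strand, match 67 to 52 bases before the start: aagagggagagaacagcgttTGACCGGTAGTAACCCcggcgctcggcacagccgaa
*Fasn*, chr11:120824737-120824792, minus strand, match 225 to 210 bases before the start: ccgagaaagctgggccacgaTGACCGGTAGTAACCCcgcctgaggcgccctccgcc
*Srebf1*, chr11:60210618-60210673, minus strand, match 182 to 167 bases before the start: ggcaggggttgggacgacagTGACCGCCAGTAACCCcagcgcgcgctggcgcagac
*Acsl3*, chr1:78657693-78657748, plus strand, match 112 to 97 bases before the start: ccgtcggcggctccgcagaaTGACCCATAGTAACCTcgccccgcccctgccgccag

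The 16 bases of the match were the same in *Abca1* and *Fasn*. The 250 bases before the *Abca1* start (chr4:53159896-53160145, minus strand) are given in full, since it is the one efflux gene with a match: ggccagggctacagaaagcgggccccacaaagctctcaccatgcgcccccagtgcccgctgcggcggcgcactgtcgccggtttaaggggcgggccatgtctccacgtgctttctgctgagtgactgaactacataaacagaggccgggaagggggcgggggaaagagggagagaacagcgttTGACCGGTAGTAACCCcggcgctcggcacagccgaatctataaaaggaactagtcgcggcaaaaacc

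Values below are normalized values, gene counts that the authors divided by a factor for each library. Estimated depth ran from 19046400 to 22805300 reads in ND and from 23017000 to 24491500 in HFD, so every HFD library was deeper than every ND library before that division. The part of depth in the results was not tested. On the first principal component of 10794 genes ND replicate 3 (3.43) lay with the HFD libraries (1.33 to 11.4) and apart from the other ND libraries (-14.0 and -13.5), so each of the 10 genes is also given without it. That library was chosen for lying near HFD, so leaving it out tends to widen the gap between diets over all genes. Fits without it are thus no independent support for a difference. The 10 macrophage markers were all present, with a summed value of 357194 to 405840 in ND and 353976 to 414945 in HFD. Of 10 neutrophil markers 6 were present, at 1712 to 2455 in ND and 2109 to 3430 in HFD, and the defining genes *Ly6g*, *Mpo* and *Elane* were not in the table. The log2 fold change was positive for all 6, with 1 at an unadjusted p under 0.05. Of 7 stromal markers 3 collagens were present (177 to 549 in ND, 51.8 to 337 in HFD), all 3 with a negative log2 fold change and 1 at an unadjusted p under 0.05. The mast cell list had only *Kit* of 5 in the table, at 117 to 226 in ND and 72.4 to 104 in HFD (log2 fold change -0.88), and the T cell list only *Cd4* of 6, at 202 to 356 and 98.1 to 230.0 (-0.70). Both were at an unadjusted p under 0.05, and the diets were apart for *Kit*. Defining genes of these cells, *Cpa3* and *Cd3e*, were not in the table. Of 5 adipocyte markers only *Fabp4* was present, at 862 to 988 in ND and 772 to 894 in HFD. All 5 proliferation markers had negative log2 fold changes, 2 of them at an unadjusted p under 0.05, with a summed value of 8715 to 9628 in ND and 7394 to 10475 in HFD. No marker on these lists passed the test (0 at a limma adjusted p under 0.05), and no B cell, erythroid or dendritic cell marker was present. The part of these cells in the results was not tested, and in bulk RNA fewer cells of a type and less RNA per cell cannot be told apart.

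No gene of the 10 passed the test between diets, and neither did any other gene (limma, Benjamini-Hochberg adjusted p over 13232 genes, 0% called). An unadjusted p under 0.05 was reached by 1401 genes (10.6%), among them 3 of the 10: *Nr1h3* and *Abcg1* with higher values in HFD (5.4% of all genes) and *Scarb1* with lower ones (5.18%). *Nr1h3* and *Abcg1* stayed under that p whichever library was left out. *Scarb1*, *Abca1*, *Mylip* and *Rxra* were under it in some of these fits only, and *Nr1h2*, *Apoe*, *Pltp* and *Lpcat3* in none. Omitting ND replicate 2 gave 5 of the 10, with *Abca1* (unadjusted p 0.0131) and *Mylip* (0.00716) added, where 8.01% of all genes were under 0.05. Omitting HFD replicate 3 gave 4, with *Rxra* (0.0319) and *Abca1* (0.0213) in and *Scarb1* out (9.17% of all genes). Omitting ND replicate 1 (5.29%), HFD replicate 1 (12.6%) or HFD replicate 2 (5.49%) left 2, and omitting ND replicate 3 left the count at 3 (17.5%). Array weights gave 6 of the 10, *Apoe*, *Abca1* and *Mylip* among them, where 27.6% of all genes were under 0.05. *Nr1h3*, *Abcg1* and *Scarb1* were also the members whose diets did not overlap, against 14.5% of all genes (7.44% with HFD above ND, 7.07% with HFD below). Log2 fold changes were positive for 7 of the 10 and had a median of 0.12, where the median of all genes was -0.0034 and 48.9% were positive. The labels do not say that replicates came from separate mice, so p-values measure only the spread between these libraries. These 10 genes were chosen with earlier results of the same data known.

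**Figure D1:**
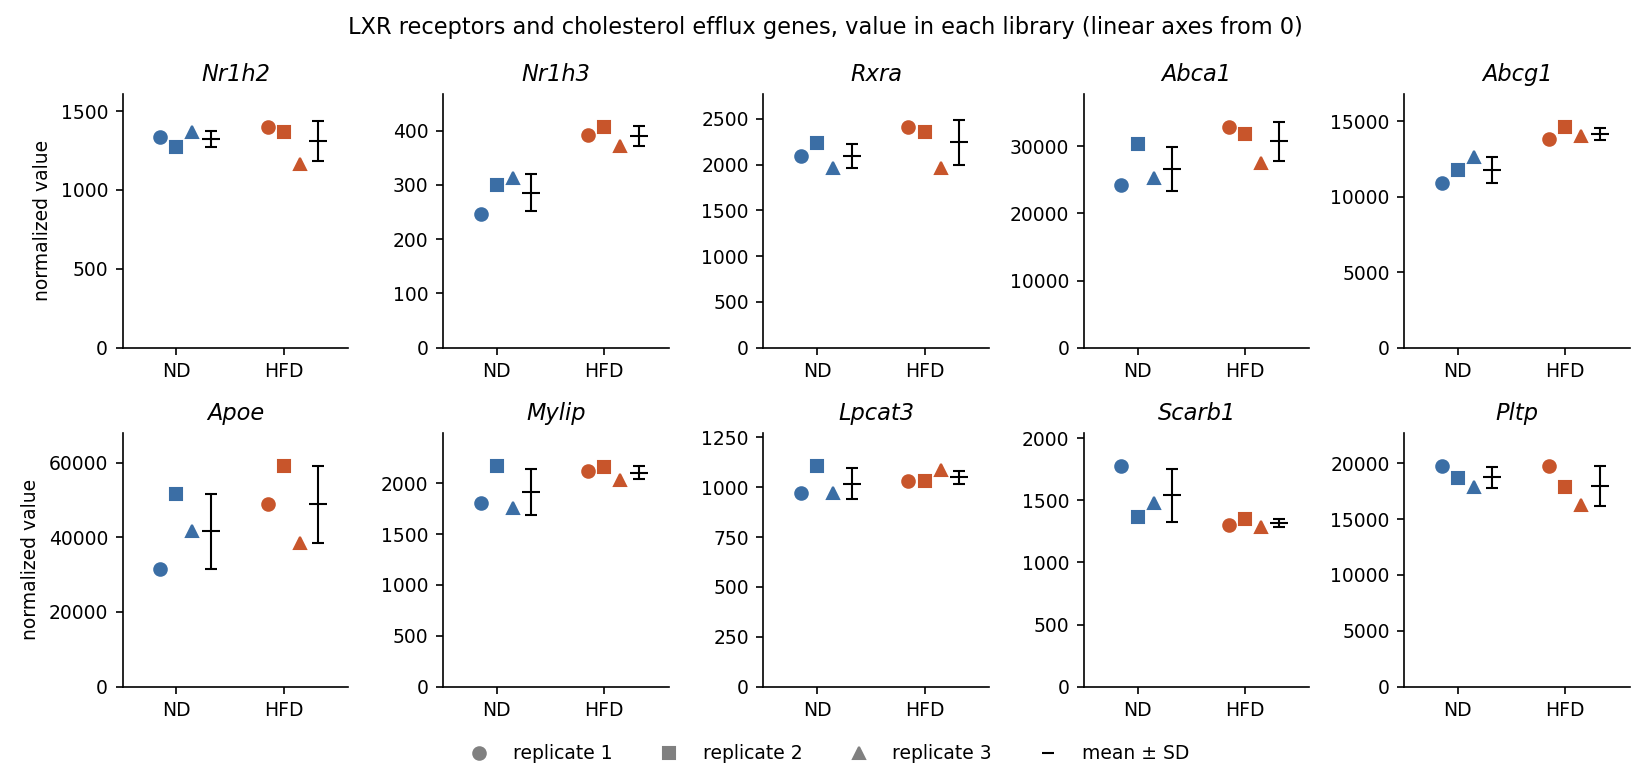
Normalized value (linear axes from 0) of each of the 10 genes in the 3 ND (blue) and 3 HFD (orange) libraries, with symbols for replicates and the mean ± SD beside them. The diets are apart for *Nr1h3*, *Abcg1* and, narrowly, *Scarb1*, and overlap for the other 7 genes.

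Among the receptors the diets were apart for *Nr1h3* and overlapped for *Nr1h2*. *Nr1h3* (chromosome 2, 91184061 to 91202834, minus strand, GENCODE M21 on GRCm38) had values of 246, 299 and 312 in the ND libraries and of 392, 407 and 371 in the HFD libraries, here and below in the order of their replicate numbers. Every HFD library lay above every ND library, with ND replicate 1 the lowest of the 6. The ND mean was 286 ± 34.7 and the HFD mean 390 ± 18.0 (SD, n = 3 each), a fold of 1.37. The log2 fold change on log2(value + 1) was 0.45 (SE 0.11, 95% interval 0.22 to 0.69), with an unadjusted p of 0.00176 and a limma adjusted p of 0.239. Without ND replicate 3 it was 0.52 (limma adjusted p 0.0549). *Nr1h3* ranked 97 of all genes by p, and 4.45% of genes had a fold change at least as far from 0. *Nr1h3* was the least abundant of the 10 and rested on about 247 to 422 reads a library, for which counting error alone is 6.36% to 4.87%. That error covers the sampling of reads only, because PCR copies were not marked by molecular identifiers.

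*Nr1h2* (chromosome 7, 44549616 to 44553951, minus strand) encodes the more widely expressed receptor. Its values were 1333, 1272 and 1369 in ND and 1402, 1368 and 1167 in HFD. The lowest and the highest library were both HFD, and the diets overlapped. The log2 fold change was -0.017 (SE 0.081, 95% interval -0.20 to 0.16, limma adjusted p 0.960), which leaves room for a difference of up to 0.20 downwards. Its sign turned without ND replicate 3 (0.0065) and without HFD replicate 3 (0.065).

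*Rxra* (chromosome 2, 27676440 to 27762957, plus strand) encodes the RXR partner that both LXRs share with other nuclear receptors. It had values of 2092, 2230 and 1963 in ND and 2414, 2352 and 1962 in HFD. HFD replicates 1 and 2 were above all ND libraries and HFD replicate 3 was level with the lowest ND library. With a log2 fold change of 0.094 (SE 0.088, 95% interval -0.10 to 0.29, limma adjusted p 0.755) *Rxra* stayed within the spread. Leaving out HFD replicate 1 gave 0.038, leaving out ND replicate 3 gave 0.048, and leaving out HFD replicate 3 gave 0.19.

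A ratio of both receptors within each library does not depend on how libraries were scaled. Per kb of exon, the *Nr1h3* value was 0.247, 0.314 and 0.304 of the *Nr1h2* value in ND, and 0.373, 0.397 and 0.424 of it in HFD. The ratio was thus highest in the 3 HFD libraries, with means of 0.288 ± 0.0362 and 0.398 ± 0.0260 (SD, n = 3 each). The difference was 0.47 on the log2 scale (exact two-sided permutation test, p = 0.1, the smallest that 3 against 3 libraries allow, and 0.2 adjusted over the 2 ratios tested). The direction held without any 1 library (0.36 to 0.54).

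**Figure D2:**
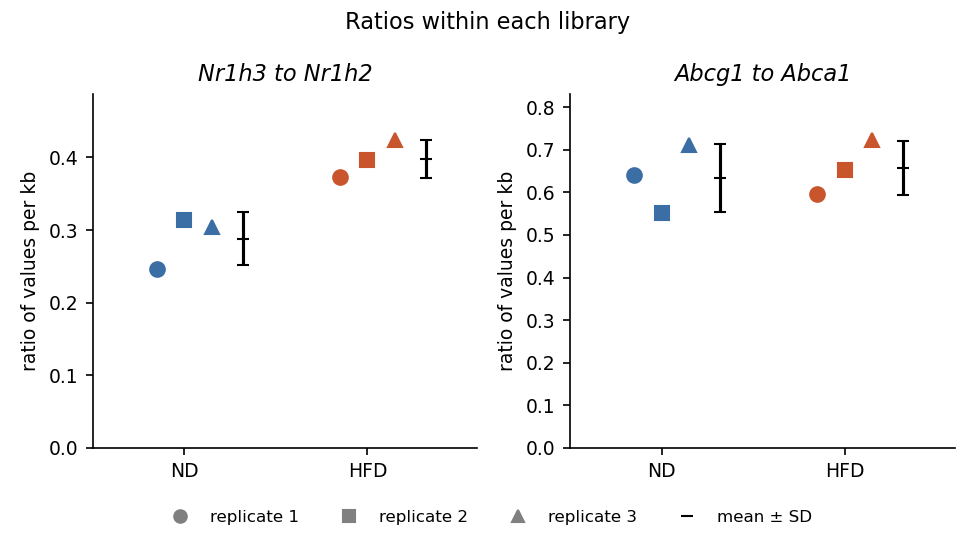
Ratio of values per kb of exon within each library (linear axes from 0), ND in blue and HFD in orange, with the mean ± SD beside the points. The *Nr1h3* to *Nr1h2* ratio was 0.247 to 0.314 in ND and 0.373 to 0.424 in HFD without overlap, and the *Abcg1* to *Abca1* ratios overlapped.

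Both efflux transporters had higher means in HFD, and only for *Abcg1* were the diets apart. *Abcg1* (chromosome 17, 31057675 to 31117988, plus strand) exports cholesterol to HDL. Its values were 10924, 11750 and 12636 in ND and 13839, 14640 and 13994 in HFD. The lowest HFD library was above the highest ND library, and the means were 11770 ± 856 and 14158 ± 425 (SD, n = 3 each), a fold of 1.20. The log2 fold change was 0.27 (SE 0.071, 95% interval 0.11 to 0.43), with an unadjusted p of 0.00381 and a limma adjusted p of 0.278. It was the one gene of the 10 that passed without ND replicate 3 (0.32, limma adjusted p 0.0475, where 1.76% of all genes passed). With limma's array weights, which give more weight to libraries that fit their diet better, *Abcg1* (limma adjusted p 0.00995) and *Nr1h3* (0.00913) both passed, where 8.56% of all genes did.

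*Abca1* (chromosome 4, 53030787 to 53159895, minus strand) passes cholesterol and phospholipid to lipid-poor apolipoprotein A-I, and it is the gene whose promoter holds the DR4 match shown above. Its values were 24196, 30310 and 25238 in ND and 32918, 31809 and 27457 in HFD. ND replicate 2 lay above HFD replicate 3, so the diets overlapped. Its log2 fold change was 0.21 (SE 0.10, 95% interval -0.022 to 0.45, unadjusted p 0.0710, limma adjusted p 0.530), and without 1 library it ran from 0.15 to 0.31 (0.18 when that was ND replicate 3). Quantile normalization gave 0.12 (unadjusted p 0.302). The *Abcg1* to *Abca1* ratio per kb was 0.641, 0.550 and 0.711 in ND and 0.597, 0.654 and 0.724 in HFD, and its difference of 0.057 on the log2 scale was within the spread between libraries (exact two-sided permutation test, p = 0.7). The sign of that difference turned without ND replicate 2 (-0.041) or HFD replicate 3 (-0.014).

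The genes outside the group whose log2 values followed *Abca1* most closely over the 6 libraries, of 10784 genes with a mean of at least 100, were *Ppfibp2* (Pearson r 0.99), *Skil* (0.98) and *Zfyve28* (0.98). This is a description over 6 libraries that share a diet 3 by 3, and 20 genes had an r of at least 0.95.

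*Apoe* (chromosome 7, 19696109 to 19699188, minus strand) encodes the apolipoprotein that macrophages secrete with effluxed lipid. It was the most abundant of the 10 and the most variable. Its values were 31501, 51560 and 41813 in ND and 48799, 59196 and 38491 in HFD. HFD replicate 3 lay below 2 of the ND libraries, and the SD was 24.1% of the mean in ND and 21.2% in HFD. The log2 fold change of 0.24 (SE 0.19, 95% interval -0.19 to 0.66, limma adjusted p 0.706) was within that spread. It dropped to 0.051 when ND replicate 1 was left out and reached 0.41 when ND replicate 2 was, while omitting ND replicate 3 gave 0.25. Array weights gave 0.53 (unadjusted p 0.0110, limma adjusted p 0.0814).

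*Pltp* (chromosome 2, 164839518 to 164857711, minus strand) encodes the phospholipid transfer protein that remodels HDL. It had values of 19734, 18662 and 17830 in ND and 19779, 17829 and 16250 in HFD, and the highest and lowest library were both HFD, so that the ND values lay within the HFD range. Its log2 fold change was -0.066 (SE 0.084, 95% interval -0.25 to 0.12, limma adjusted p 0.832), which became -0.14 when HFD replicate 1 was dropped and 0.0040 when HFD replicate 3 was. Dropping ND replicate 3 gave -0.10, and quantile normalization gave -0.11. *Pltp* shares 495 exon bases (19.3% of its exons) with *Ctsa* on the opposite strand, and 8.17% of its 75-base windows occur in *Ctsa* transcripts. The libraries were stranded, but the sources used here do not say that the counting used strand, so its value is uncertain to that extent.

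*Scarb1* (chromosome 5, 125277087 to 125341094, minus strand) encodes the HDL receptor SR-BI, which moves cholesterol along its gradient in either direction. Its values were 1779, 1368 and 1476 in ND and 1304, 1350 and 1289 in HFD. All HFD libraries lay below all ND libraries, but HFD replicate 2 and ND replicate 2 were close, and ND replicate 1 was well above the rest. Its log2 fold change was -0.22 (SE 0.093, 95% interval -0.43 to -0.013, unadjusted p 0.0395, limma adjusted p 0.439). It was -0.25 when ND replicate 3 was dropped. It was -0.11 without ND replicate 1 (unadjusted p 0.176), and the unadjusted p was also above 0.05 without any 1 of the HFD libraries (0.0639 to 0.0838).

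*Mylip* (chromosome 13, 45389742 to 45412022, plus strand) encodes IDOL, the ubiquitin ligase that marks lipoprotein receptors for degradation. It had values of 1807, 2172 and 1758 in ND and 2121, 2160 and 2031 in HFD. ND replicate 2 was the highest of the 6 and the other ND libraries the lowest. HFD over ND gave a log2 fold change of 0.14 (SE 0.084, 95% interval -0.044 to 0.33, limma adjusted p 0.599), which became 0.24 when ND replicate 2 was dropped and 0.086 when ND replicate 3 was.

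*Lpcat3* (chromosome 6, 124663027 to 124704418, plus strand) encodes the enzyme that puts polyunsaturated chains into phospholipid. Its values were 973, 1109 and 973 in ND and 1031, 1032 and 1089 in HFD, with ND replicate 2 the highest of the 6. Between diets the log2 fold change was 0.047 (SE 0.074, 95% interval -0.12 to 0.21, limma adjusted p 0.865). It was 0.016 without ND replicate 1 or ND replicate 3, and 0.11 without ND replicate 2. *Lpcat3* shares 334 exon bases (10.2%) with *Emg1* on the opposite strand and 7.49% of its 75-base windows with *Emg1* transcripts, so the same limit on strand holds. The other 8 genes shared no 75-base window with a transcript of another gene.

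**Figure D3:**
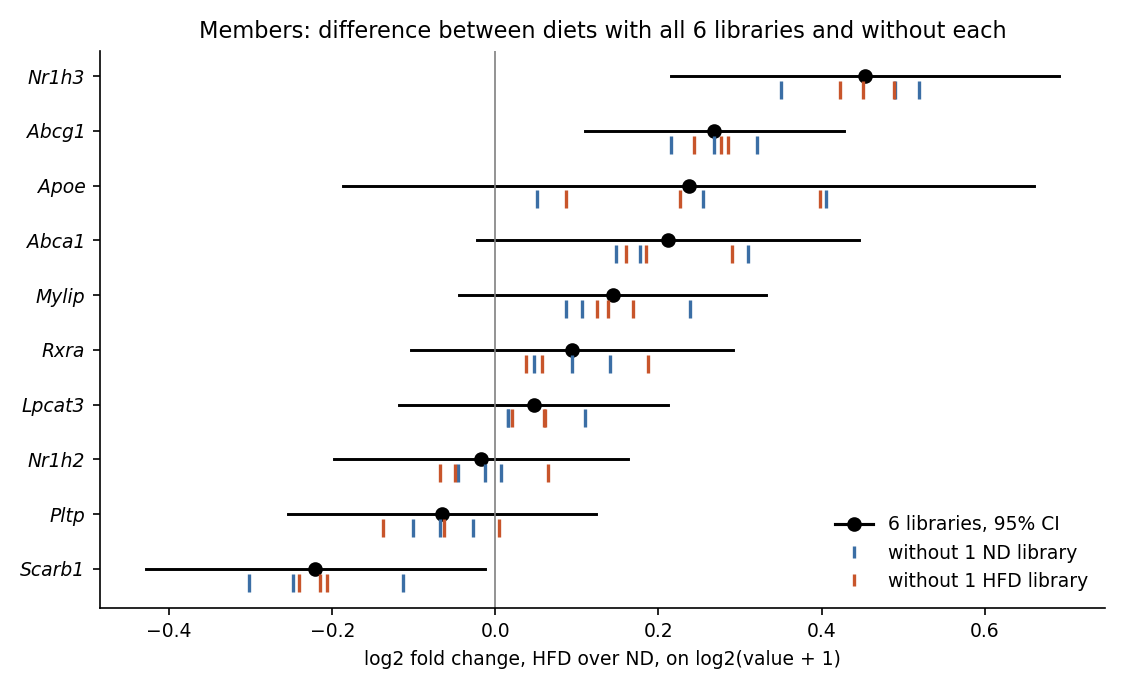
Log2 fold change of HFD over ND on log2(value + 1) for each of the 10 genes: the black point and line are the estimate and its 95% interval from all 6 libraries, and the ticks below are estimates without 1 ND (blue) or 1 HFD (orange) library. *Nr1h3* and *Abcg1* stayed above 0 in every such estimate (0.35 to 0.52 and 0.22 to 0.32), while those of *Nr1h2* and *Pltp* lay on both sides of 0.

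The 10 genes differed far more from each other than between diets. Per kb of exon (all annotated exons of the gene joined), *Apoe* led (mean of all 6 libraries 21154) and *Nr1h3* came last (134). Between them stood *Pltp* (7161), *Abca1* (2765), *Abcg1* (1776), *Mylip* (621), *Rxra* (397), *Nr1h2* (393), *Lpcat3* (316) and *Scarb1* (168). The ranges over the 6 libraries were apart for each pair of neighbours in that order, except for *Rxra* and *Nr1h2*, and for *Scarb1* and *Nr1h3*. *Scarb1* was above *Nr1h3* by mean in ND (181 against 114 per kb), and in HFD they were level (155 and 155 per kb). The 4 highest were thus the apolipoprotein, the transfer protein and both efflux transporters. Together the 10 genes held 0.427% to 0.581% of a library's normalized total.

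**Figure D4:**
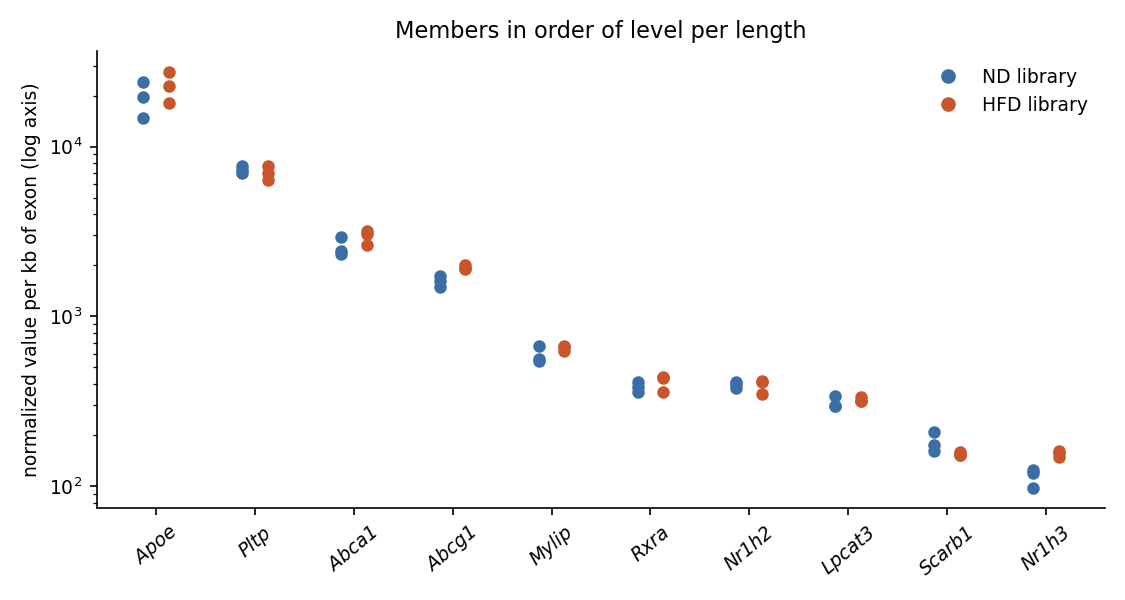
Normalized value per kb of exon (log axis) of the 10 genes in order of their mean, with 1 point for each ND (blue) and HFD (orange) library. Levels run from about 21154 for *Apoe* to 134 for *Nr1h3*, and the points of *Rxra* and *Nr1h2* overlap.

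The libraries of a diet did not vary alike across the 10 genes. Within HFD, replicate 3 was the lowest for 8 of the 10, the exceptions being *Abcg1* and *Lpcat3*. Within ND, replicate 1 was the lowest for 5 genes (*Nr1h3*, *Abca1*, *Abcg1*, *Apoe* and *Lpcat3*) and replicate 2 the highest for 5. HFD replicate 3 was also the deepest library, and the part of depth in its lower values was not tested. Without HFD replicate 3, 9 of the 10 log2 fold changes were positive and their median was 0.18 (-0.0024 over all genes). Leaving out the library that was lowest for 8 of the 10 raises their HFD means, so a shift upwards was fixed in advance. Without ND replicate 3 the median was 0.067 (-0.0038 over all genes) and 8 were positive.

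Among other LXR targets, the diets were apart for 3 of 14, all 3 with lower values in HFD, where 7.07% of all genes were apart in that direction. Log2 fold changes were positive for 6 of the 14 and negative for 8. Of 17 listed, 14 were in the table and 0 passed the test (0 at an adjusted p, limma), 0 were higher and 3 lower at an unadjusted p under 0.05, where 5.4% of all genes were higher and 5.18% lower, and the median log2 fold change was -0.10 (-0.0034 over all genes). Leaving out 1 library gave 0 to 1 higher and 3 to 5 lower, where 5.29% to 17.5% of all genes were under that p in either direction. The 3 were *Fads2*, *Scd1* and *Cd5l*. *Fads2*, a desaturase of polyunsaturated fatty acids, had values of 344, 234 and 268 in ND and 117, 98.4 and 148 in HFD (log2 fold change -1.21, SE 0.18, limma adjusted p 0.113). *Scd1*, the desaturase that makes oleate, was low, at 50.2, 51.4 and 34.6 in ND and 11.8, 22.4 and 17.5 in HFD (-1.37, SE 0.31, limma adjusted p 0.229). *Cd5l*, a secreted protein of macrophages, was at 7259, 6587 and 6206 in ND and 6064, 4993 and 4417 in HFD (-0.38, SE 0.11, limma adjusted p 0.293). For all 3 the diets were apart. Both desaturases are also targets of SREBP1. One of the 14, *Mertk*, is also on the macrophage marker list.

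The 4 genes with a DR4 match near the start had log2 fold changes of both signs. *Srebf1* was at 1385, 1240 and 1540 in ND and 1475, 1435 and 1371 in HFD (log2 fold change 0.044, SE 0.084, limma adjusted p 0.892). *Fasn*, which encodes fatty acid synthase and has the same 16 bases as *Abca1*, was at 1648, 1133 and 1442 in ND and 1148, 1117 and 1289 in HFD (-0.23, SE 0.12, limma adjusted p 0.552). *Acsl3*, an acyl-CoA synthetase, was at 574, 580 and 536 in ND and 544, 471 and 577 in HFD (-0.090, SE 0.091, limma adjusted p 0.776). The diets overlapped for all 4, *Abca1* included.

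Among 14 partners and cofactors of LXR, 13 were in the table, 0 passed the test (limma adjusted p), and 1 was lower and 0 higher at an unadjusted p under 0.05, with a median log2 fold change of -0.039 (-0.0034 over all genes). With 5.18% of all genes lower at that p, 1 of 13 is near the background. Without ND replicate 3 it was 3 of 13, in a fit where 17.5% of all genes were under that p in either direction. The 1 gene lower with all 6 libraries was the coactivator *Ncoa3*, at 6948, 6125 and 5641 in ND and 5267, 5170 and 5264 in HFD (-0.25, SE 0.078, limma adjusted p 0.319). The corepressor component *Tbl1xr1* (-0.088, limma adjusted p 0.695) and the coactivator *Ncoa1* (-0.12, limma adjusted p 0.706) overlapped between diets.

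Of 9 genes of oxysterol and desmosterol metabolism, which set the supply of LXR ligand, 5 were in the table and 0 passed the test (limma adjusted p). *Ch25h*, which makes 25-hydroxycholesterol, was not among the 5. *Hsd3b7* (log2 fold change 0.14, limma adjusted p 0.542), a bile acid enzyme that clears oxysterols, and *Cyp27a1* (-0.27, limma adjusted p 0.627), which makes 27-hydroxycholesterol, overlapped between diets.

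Of 12 genes that move, esterify or hydrolyse cholesterol inside the cell, 11 were in the table. None passed the test (0 at a limma adjusted p under 0.05), and 2 were higher and 1 lower at an unadjusted p under 0.05, where 5.4% and 5.18% of all genes were. The 2 higher became 0 without ND replicate 1, 1 without HFD replicate 2 or HFD replicate 3, and 1 with quantile normalization, which gave 2 lower. Without HFD replicate 1 there were 2 lower. In these fits 5.29% to 12.6% of all genes were under that p in either direction. The median log2 fold change was 0.0098. *Stard4*, a sterol transfer protein and SREBP2 target, was at 764, 530 and 546 in ND and 390, 351 and 385 in HFD (-0.69, SE 0.13, limma adjusted p 0.181). *Lipa*, the lysosomal lipase that frees cholesterol from lipoprotein esters, was at 41326, 44005 and 41811 in ND and 44739, 51218 and 55661 in HFD (0.25, SE 0.094, limma adjusted p 0.396). *Cav1*, which encodes caveolin, was low, at 19.0, 27.4 and 36.6 in ND and 46.0, 46.3 and 49.9 in HFD (0.80, SE 0.27, limma adjusted p 0.353).

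**Figure D5:**
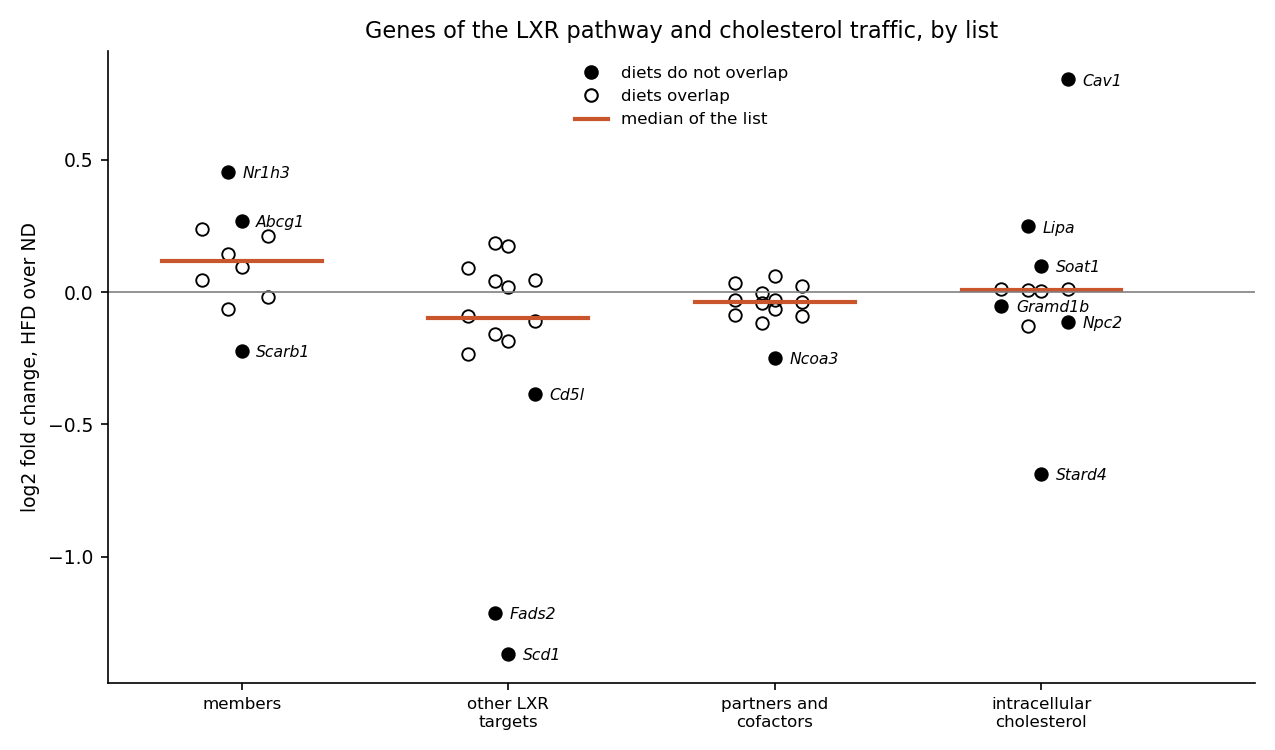
Log2 fold change of HFD over ND (linear axis) for the 10 genes and 3 of the lists around them, with 1 circle per gene, filled and named where the diets do not overlap, and an orange line at each list's median. *Nr1h3* and *Abcg1* lie above 0, and the genes farthest below 0 are *Scd1*, *Fads2* and *Stard4*.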

How the data were processed

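Total RNA depleted of ribosomal RNA was sequenced from stranded libraries as single reads of 75 bases, per the labels' protocols. Per the submitters' processing notes the authors used STAR and Partek with build mm10. Annotation, counting settings and filters are not given in the sources used here. The unit of the deposited table is a signal. From the values, these are gene counts scaled by a factor per library: between 5 and 1000, a share of 57.1% to 58.4% fell on multiples of 1 step to within 0.02 of that step, the value of 1 read. Too many were fractional to recover reads, so no count test was run. Depth is the column's sum divided by that step. Column names have NC where the labels have the normal diet, and were matched to it.

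Diets were compared gene by gene on log2(value + 1) with limma 3.58.1 in R 4.3.3 (mean-variance trend, two-sided), without a filter, with Benjamini-Hochberg adjustment over 13232 genes and a threshold of 0.05. Fold changes on this scale understate those of low genes. Ratios were compared by an exact permutation test (SciPy 1.17.1). The procedure was tested on simulated data. Coordinates and exon lengths come from GENCODE M21 (GRCm38, the same assembly as mm10), and promoters from RefSeq GRCm38.p6.

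The 10 genes, the lists and the rule for naming genes (all 10, the 3 smallest p of each list, the 3 most like *Abca1*) were chosen with earlier results of these data known. Some genes of the lists are not reported here. *Srebf1*, *Fasn* and *Acsl3* were named afterwards for their promoter match, and *Ch25h*, *Mertk* and markers to describe their lists. Alternatives were a pseudocount of 0.1, minimum values, quantile and total scaling, no trend, array weights, a replicate block and leaving out each library.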

Additional observations from a re-analysis of the deposited data

How the results depend on the processing

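Of 140 values of the 10 genes under 14 alternatives, 133 did not change in direction or call, 3 passed the threshold and 4 changed sign. Minimum values, no trend and the replicate block leave the log2 fold change itself the same, so no sign could turn under them. As none of the 10 passed with the main settings, an unchanged call is one that still did not pass. With array weights *Nr1h3* (0.57, limma adjusted p 0.00913) and *Abcg1* (0.34, 0.00995) passed, so 2 of the 10 did, in a fit that called 1133 genes (8.56%), and *Nr1h2* turned to 0.028. Array weights also gave 3 other LXR targets (*Scd1*, *Fads2*, *Cd5l*), 1 cofactor (*Ncoa3*) and 2 intracellular cholesterol genes (*Stard4*, *Cav1*). The weights ran from 0.441 (ND replicate 3) to 3.09 (HFD replicate 2). Leaving out 1 library gave 0 to 233 genes in all, the 233 without ND replicate 3, and 2 or fewer for any other library. It gave 0 to 1 of the 10 genes, 0 to 1 of the other LXR targets (*Fads2*) and 0 to 1 of the intracellular cholesterol genes (*Stard4*), each time the 1 without ND replicate 3. *Nr1h2* ran from -0.067 to 0.065, *Pltp* from -0.14 to 0.0040, and the log2 *Abcg1* to *Abca1* ratio from -0.041 to 0.14 without 1 library. The cause of these changes was not tested. The range of the limma adjusted p over all alternatives was 0.00913 to 0.879 for *Nr1h3* and 0.00995 to 0.882 for *Abcg1*, and *Abca1*, *Apoe*, *Mylip*, *Rxra*, *Lpcat3* and *Scarb1* kept their direction in each. The replicate block gave 31 genes (0.234%), 0 of the 10 and 1 other LXR target (*Fads2*). Deviations from the diet means correlated at 0.09, -0.11 and 0.03 between libraries of one number. These values show no pairing by number, but 3 libraries per diet cannot exclude one. Counting error alone was 0.404% to 6.36% of a value over the 10 genes, largest for *Nr1h3*, and 3 libraries per diet limit the precision.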
